A study of Mus musculus with 4 samples.

Results

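Tfcp2l1, a member of the CP2 family of DNA-binding proteins, helps keep mouse embryonic stem cells in the naive state. The regions described here are the Tfcp2l1 ChIP-seq peaks that were called in 1 repeat of the experiment and not in the other. A region was chosen by the authors' own peak calls: a peak of 1 list on autosomes 1 to 19 that overlapped no peak of the other list by 1 bp or more. This left 13383 of 56641 autosomal peaks in repeat 1 (23.6%, 95% exact interval 23.3% to 24%) and 7704 of 50898 in repeat 2 (15.1%, 14.8% to 15.5%). They are called repeat-1-only and repeat-2-only peaks, and all others are called shared. The 2 lists together hold 109224 peaks on all chromosomes.

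Both repeats used wild type embryonic stem cells grown in 2i with LIF (1000 units/mL LIF, 3 µM CHIR99021 and 1 µM PD0325901) without further treatment. LIF is a cytokine that sustains self-renewal, CHIR99021 inhibits the kinase GSK3 and PD0325901 inhibits MEK. Each repeat had 1 ChIP library, made with an antibody raised to order against the mouse protein, and 1 input library of chromatin that was not immunoprecipitated. The labels do not say whether the repeats were separate cultures, so differences between them may be technical. After duplicate filtering the repeat 1 libraries held 19353473 (ChIP) and 18446758 (input) tags, and those of repeat 2 22555373 and 23825930. A ChIP peak list does not show RNA, so the cell type was not checked against marker expression.

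CP2 factors bind DNA as dimers that contact a pair of short repeats. A peak is a stretch of genome where sheared, immunoprecipitated fragments pile up above the input, and its summit is the point of highest pile-up. Gene starts in mammals often lie in CpG islands, stretches rich in the dinucleotide CG. A call in 1 library only says that the other library did not pass the caller's threshold there. The other library's tags at these regions were not analysed here.

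The promoters below were printed because the repeats differed in CG content at the starts they called alone. The first 3 are the repeat-1-only peaks with the most tags among those with a summit in a RefSeq promoter window (300 bases, from 250 before a start to 50 after it). Each run is the 250 bases before the start, 5′ to 3′ on the strand of the gene, from RefSeq for GRCm38.p6, with every CG in capitals.

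Bcl7c (chr7:127708767-127709016, minus strand): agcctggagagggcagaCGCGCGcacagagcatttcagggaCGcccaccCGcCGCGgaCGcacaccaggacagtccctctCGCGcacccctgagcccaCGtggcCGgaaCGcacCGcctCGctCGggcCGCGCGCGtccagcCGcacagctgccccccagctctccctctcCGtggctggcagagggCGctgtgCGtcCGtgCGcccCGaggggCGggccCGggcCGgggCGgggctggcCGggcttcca

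Cldn3 (chr5:134985964-134986213, plus strand): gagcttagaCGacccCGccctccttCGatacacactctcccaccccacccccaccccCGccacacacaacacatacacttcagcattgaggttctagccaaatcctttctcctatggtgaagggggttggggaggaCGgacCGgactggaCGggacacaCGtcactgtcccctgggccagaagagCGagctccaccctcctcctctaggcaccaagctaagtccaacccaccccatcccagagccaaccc

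Jmy (chr13:93499809-93500058, minus strand): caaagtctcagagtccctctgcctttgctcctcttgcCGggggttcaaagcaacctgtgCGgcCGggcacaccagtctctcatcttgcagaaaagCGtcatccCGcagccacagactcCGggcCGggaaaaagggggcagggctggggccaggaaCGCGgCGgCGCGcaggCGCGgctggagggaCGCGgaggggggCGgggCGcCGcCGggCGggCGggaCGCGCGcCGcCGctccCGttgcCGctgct

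Bcl7c, which encodes a subunit of BAF chromatin remodelling complexes, had 32 CG in these 250 bases. Its repeat-1-only peak held 102 tags at 17.5-fold enrichment, with the summit 232 bp before the start. The claudin gene Cldn3, a tight-junction component, had 9 CG, a peak of 89 tags and 9.64-fold enrichment. Jmy, a regulator of actin assembly and p53, had 29 CG, a peak of 86 tags and 19.3-fold enrichment. All 3 peaks had a deposited FDR of 0%. The nearest peak of repeat 2 lay 7.16 kb, 3.18 kb and 13.9 kb away.

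The next 4 promoters are those of the repeat-2-only peaks with the most tags inside such a window, and Gm10829 and Gm12022 are annotated as lncRNA genes.

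Gm5785 (chr12:51827935-51828184, plus strand): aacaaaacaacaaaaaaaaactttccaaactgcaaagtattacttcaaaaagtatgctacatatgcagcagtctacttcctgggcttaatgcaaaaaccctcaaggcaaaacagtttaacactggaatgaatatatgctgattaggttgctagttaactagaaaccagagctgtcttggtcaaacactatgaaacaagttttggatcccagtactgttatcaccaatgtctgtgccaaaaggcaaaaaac

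Gm10829 (chr2:35841229-35841478, plus strand): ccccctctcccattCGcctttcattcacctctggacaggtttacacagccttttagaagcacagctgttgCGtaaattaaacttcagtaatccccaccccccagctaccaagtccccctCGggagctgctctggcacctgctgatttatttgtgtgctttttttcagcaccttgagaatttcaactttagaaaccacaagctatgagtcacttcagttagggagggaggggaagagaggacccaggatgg

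Gm12022 (chr11:18493267-18493516, minus strand): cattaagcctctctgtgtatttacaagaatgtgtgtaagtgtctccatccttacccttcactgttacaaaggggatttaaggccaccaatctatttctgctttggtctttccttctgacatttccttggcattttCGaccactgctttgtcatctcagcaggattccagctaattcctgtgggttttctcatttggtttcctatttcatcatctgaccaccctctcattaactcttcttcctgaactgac

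Cd80 (chr16:38458683-38458932, plus strand): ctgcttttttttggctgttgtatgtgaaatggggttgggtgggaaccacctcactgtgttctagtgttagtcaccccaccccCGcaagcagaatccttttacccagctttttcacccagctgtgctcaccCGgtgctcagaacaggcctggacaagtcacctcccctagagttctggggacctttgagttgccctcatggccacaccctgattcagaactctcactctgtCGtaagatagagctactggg

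In these 250 bases Gm5785 had 0 CG, Gm10829 and Cd80 had 3 each and Gm12022 had 1. The Gm5785 peak held 58 tags at 11-fold enrichment and the Gm10829 peak 56 tags at 8.24-fold. The Gm12022 peak held 50 tags at 10.6-fold. Cd80, which encodes a co-stimulatory ligand for T cells, had a peak of 49 tags at 13.7-fold. The 4 sequences thus carried far fewer CG than Bcl7c or Jmy, while Cldn3, with 9 CG, lay nearer to them.

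For comparison, 1 shared promoter was taken per repeat, with tags nearest to the median of the 6 largest single-repeat promoter peaks (81.5 and 49.5 tags). In repeat 1, 25 shared peaks were equally near and in repeat 2, 45 were. The first by chromosome is printed: the collagen gene Col13a1 for repeat 1 and Hecw2, a ubiquitin ligase gene, for repeat 2.

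Col13a1 (chr10:61979109-61979358, minus strand): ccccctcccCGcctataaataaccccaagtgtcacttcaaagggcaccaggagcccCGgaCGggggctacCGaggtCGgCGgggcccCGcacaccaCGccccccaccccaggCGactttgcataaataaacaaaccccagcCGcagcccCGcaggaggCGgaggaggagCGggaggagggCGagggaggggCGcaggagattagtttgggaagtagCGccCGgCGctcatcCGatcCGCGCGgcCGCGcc

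Hecw2 (chr1:54195035-54195284, minus strand): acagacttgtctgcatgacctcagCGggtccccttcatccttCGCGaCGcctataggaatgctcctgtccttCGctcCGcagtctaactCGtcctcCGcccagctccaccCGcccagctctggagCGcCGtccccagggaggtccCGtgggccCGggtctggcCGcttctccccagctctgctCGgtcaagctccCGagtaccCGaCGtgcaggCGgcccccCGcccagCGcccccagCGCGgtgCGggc

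Both sequences had 24 CG, more than is usual among the peaks they were taken from. Over all 25 tied peaks of repeat 1 the 250 bases held a median of 15 CG (1 to 42), and over the 45 of repeat 2 a median of 14 (0 to 43). The 3 repeat-1-only and 4 repeat-2-only examples lie within these ranges. The Col13a1 peak held 81 tags in repeat 1 and 31 in repeat 2, and the Hecw2 peak held 71 in repeat 1 and 49 in repeat 2.

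Most single-repeat peaks were small. Repeat-1-only peaks held a median of 28 tags (lowest 16, highest 2745) and repeat-2-only peaks a median of 28 (18 to 439), against 58 and 56 for shared peaks. Median fold enrichment, the authors' ratio of summit tags to local background, was 7.73 and 6.54, against 15.5 and 11.5 for shared peaks. Median length was 795 bp and 751 bp, against 981 bp and 988 bp. A deposited FDR of 0% was carried by 901 repeat-1-only peaks (6.73%) and 641 repeat-2-only peaks (8.32%), against 61.7% and 27.4% of shared peaks. Fold enrichment reached 10 in 2466 repeat-1-only peaks (18.4%) and in 349 repeat-2-only peaks (4.53%), against 74.7% and 59.0% of shared peaks. Of all filtered ChIP tags, repeat-1-only peaks took up 2.22% and repeat-2-only peaks 1.01%. Tags, enrichment and length come from the calls that chose the members, so these values are a description and were not tested.

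The share found in 1 repeat only fell with the tag count. Of peaks with at most 20 tags, 67.8% of those in repeat 1 and 65.5% of those in repeat 2 were single. At 31 to 40 tags the shares were 33.3% and 21.9%. Above 100 tags they were 0.509% (58 of 11397) and 0.0572% (6 of 10490). Each position below was compared with shared peaks of the same tag count.

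At low tag counts, peaks at gene starts were single more often in repeat 1 and less often in repeat 2 than peaks away from starts. In repeat 1, 46.0% (43.0% to 48.9%) of peaks of 31 to 40 tags with a RefSeq transcription start within 1 kb of the summit were repeat-1-only. Away from starts the share was 31.6% (30.6% to 32.6%). In repeat 2 the shares were 12.4% (10.5% to 14.6%) at starts and 23.0% (22.1% to 23.9%) away from them. The exact intervals did not overlap in either list, and the order of near and far was opposite. Chromosome 18 was not used for distances to starts.

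**Figure D1:**
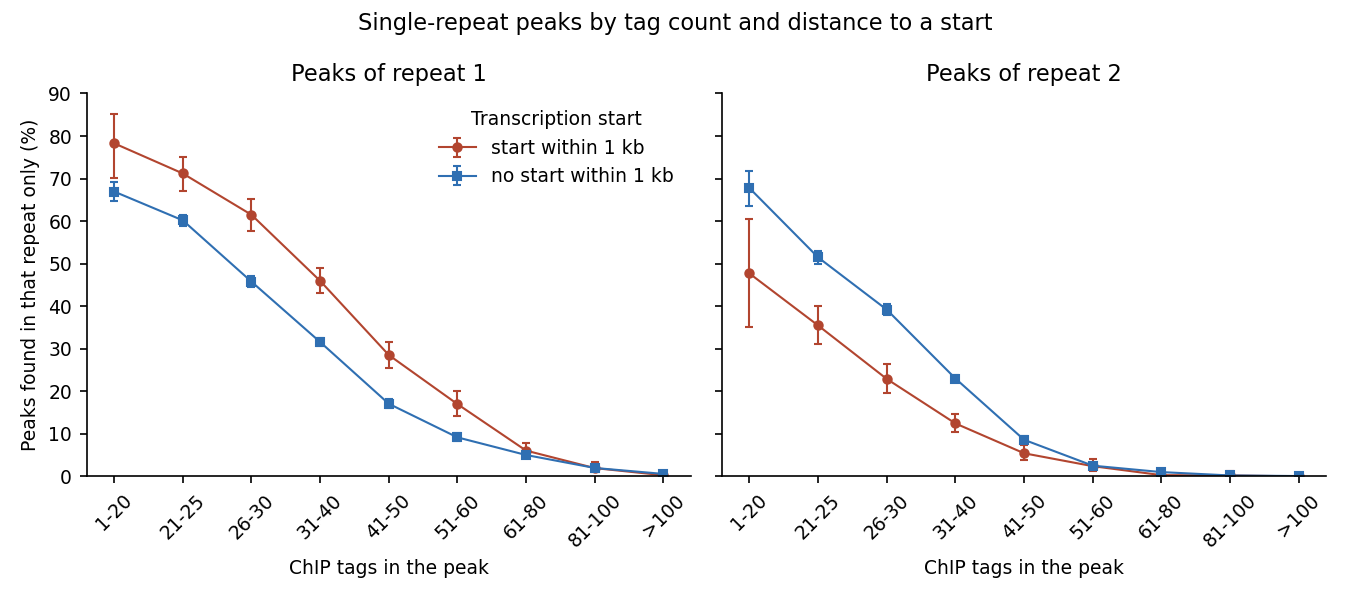
Percentage of autosomal peaks found in 1 repeat only (y axis) by ChIP tags in the peak (x axis), for peaks with (circles) and without (squares) a transcription start within 1 kb, with exact 95% binomial intervals. At 31 to 40 tags the share at starts is 46.0% in repeat 1 and 12.4% in repeat 2, on opposite sides of the shares away from starts (31.6% and 23.0%).

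Repeat-1-only summits lay at starts more often than shared summits of the same tag count, and repeat-2-only summits less often. Of 12973 repeat-1-only peaks, 1794 (13.8%) had a start within 1 kb, against 8.28% of shared peaks weighted to the same tag counts. The difference was 5.55 percentage points (95% interval 4.79 to 6.31) and was positive on 18 of 18 autosomes. Of 7423 repeat-2-only peaks, 519 (6.99%) had a start within 1 kb, against 13.3% of shared peaks with the same tag counts. The difference was -6.26 points (-7.12 to -5.40) and was positive on 0 of 18 autosomes. Peaks are not replicates, so intervals cover counting error only and no p is given. Of all shared peaks, 13.2% in repeat 1 and 13.3% in repeat 2 had a start within 1 kb, and without matching on tags the difference in repeat 1 was 0.62 points (-0.06 to 1.30). Matched on fold enrichment it was 2.83 points (2.02 to 3.64).

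The excess in repeat 1 lay close to the start and reached into the gene. In the 200 bp just downstream of starts lay 3.59% of repeat-1-only summits and 1.5% of tag-matched shared summits. In the next 200 bp the values were 2.15% and 0.712%. Of the repeat-1-only summits within 1 kb of a start, 39.1% were upstream of it, against 50.5% of the matched shared summits. Repeat-2-only summits showed a low, broad rise at starts, with 1.02% in the first 200 bp downstream against 2.60% of their matched shared summits.

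**Figure D2:**
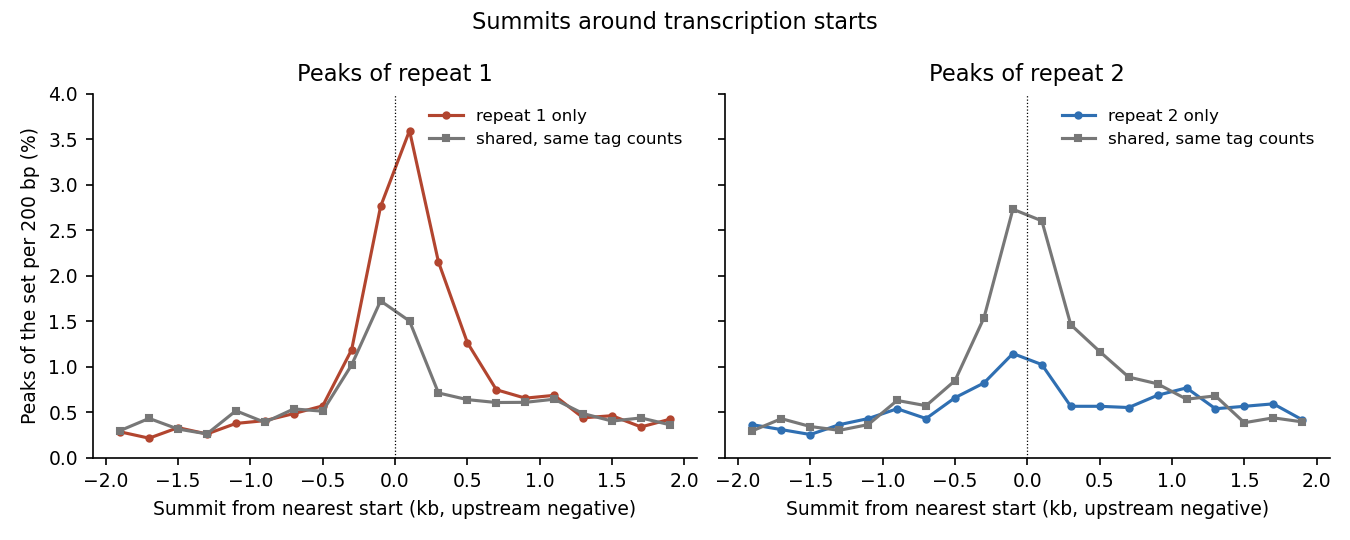
Percentage of each set with its summit in successive 200 bp bins (y axis) by distance from the nearest transcription start in kb (x axis, upstream negative), for single-repeat peaks (colour) and shared peaks weighted to the same tag counts (grey). Just downstream of the start the repeat-1-only set reaches 3.59% over 1.5% for shared peaks, and the repeat-2-only set stays at 1.02% under 2.60%.

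Distances to the ends of protein-coding genes, where a start and an end are not told apart, gave the same opposite signs. Within 1 kb of such an end lay 2022 repeat-1-only summits (15.1%, against 9.04% of matched shared summits, a difference of 6.07 points, 5.29 to 6.85). In repeat 2 there were 609 (7.90%, against 14.2%, a difference of -6.30 points, -7.19 to -5.42). The difference was positive on 19 of 19 autosomes in repeat 1 and on 0 of 19 in repeat 2. The repeat 1 value fell to 3.31 points (2.49 to 4.13) when shared peaks were matched on fold enrichment and to 1.10 points (0.41 to 1.78) without matching. Within 10 kb the differences were 5.66 points (4.49 to 6.84) and -5.41 points (-6.84 to -3.99). Without matching on tags, the repeat 1 difference within 10 kb turned to -1.21 points (-2.17 to -0.25), and matched on fold enrichment it was 1.53 points (0.33 to 2.72).

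Inside protein-coding genes lay 56.5% of repeat-1-only and 54.1% of repeat-2-only summits. Exons and introns were not told apart. Against matched shared summits the differences were 3.53 points (2.34 to 4.72) and -1.47 points (-2.91 to -0.03). With at least 30 tags the repeat 2 interval took in 0 (-1.23 points, -3.20 to 0.75). Without matching, so did the repeat 1 interval (0.65 points, -0.31 to 1.62).

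Gene deserts held like shares of both sets. More than 100 kb from every protein-coding gene end lay 1834 repeat-1-only summits (13.7%) and 1063 repeat-2-only summits (13.8%). Against matched shared summits this was 2.19 points higher in repeat 2 (1.22 to 3.16). In repeat 1 the difference was -0.21 points (-1.03 to 0.62), which took in 0. The interval lay above 0 in 5 of 9 alternatives, for example at 1.85 points (0.85 to 2.85) with at least 30 tags, so the repeat 1 value has no settled sign. Counting genes of every class, the nearest gene was non-coding for 43.4% of repeat-1-only and 46.1% of repeat-2-only peaks, which was -3.42 points (-4.61 to -2.23) and 2.82 points (1.38 to 4.26) from matched shared peaks. Without matching, the repeat 1 difference was 0.82 points (-0.14 to 1.78).

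Both sets were more isolated than shared peaks of the same tag count. A shared peak of the same list lay within 10 kb of 50.0% of repeat-1-only and 51.7% of repeat-2-only summits. The differences were -2.84 points (-4.04 to -1.64) and -2.72 points (-4.16 to -1.27), positive on 3 of 19 autosomes in repeat 1 and on 6 of 19 in repeat 2. Any other peak of the same list lay within 10 kb of 57.6% and 56.4%, with differences of -1.96 points (-3.14 to -0.78) and -2.03 points (-3.46 to -0.60). These were positive on 6 of 19 and 5 of 19 autosomes, so the direction was not the same on every autosome. On both measures the sets departed from shared peaks in the same direction. The size depended on the setting: for a shared peak within 10 kb, repeat 1 gave -7.98 points matched on fold enrichment, -9.37 without matching and -9.78 for members over 1 kb from any peak of the other repeat. Repeat 2 gave -5.44, -7.43 and -10.4 points. The last setting left out members beside peaks of the other repeat but no shared peak. Its larger values are thus partly built in and add no evidence of isolation.

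**Figure D3:**
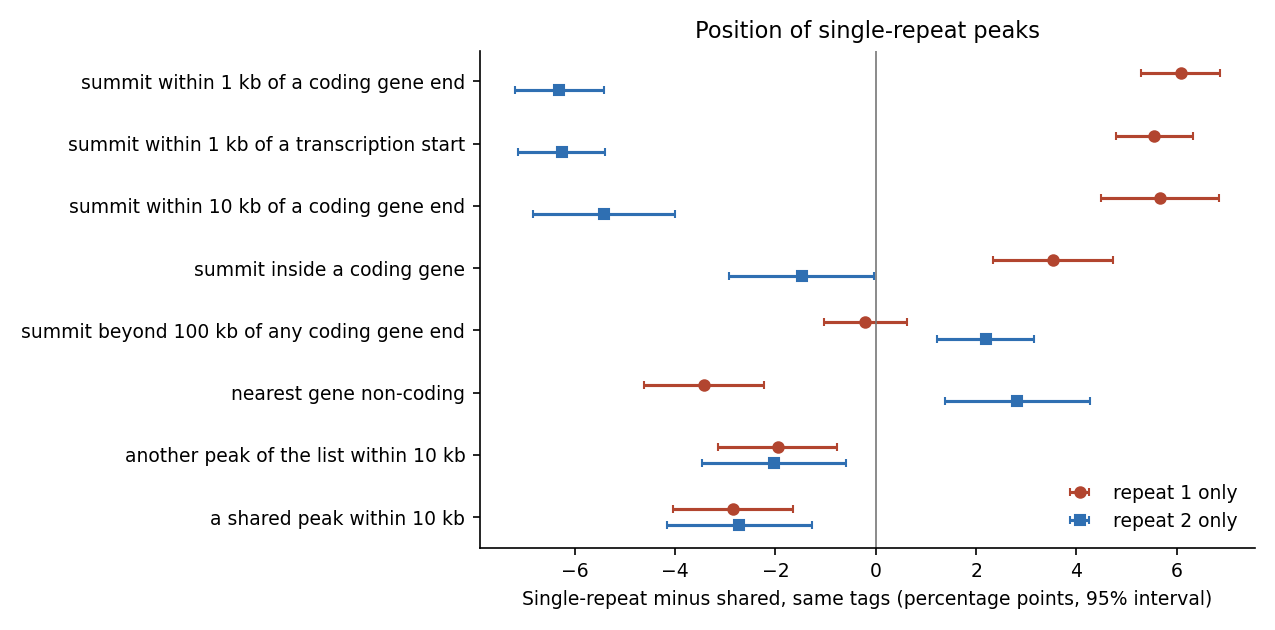
Difference between single-repeat peaks and shared peaks of the same tag count in percentage points (x axis, 95% interval, counting error only) for 8 measures of position (rows), for repeat 1 (circles) and repeat 2 (squares). At coding gene ends the sets sit at 6.07 and -6.30 points, while for a shared peak within 10 kb they sit together at -2.84 and -2.72.

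The shared peaks, which are no members, were tilted the same way between the libraries. Over 5172 one-to-one shared pairs within 1 kb of a start, tags scaled to each library's filtered total were higher in repeat 1 by a median of 0.50 on the log2 scale (quartiles 0.18 and 0.83). Over 34662 pairs farther away the median was 0.22 (-0.07 to 0.54). For pairs with at most 50 tags in both lists, the medians were 0.35 (1316 pairs) and 0.18 (12655 pairs). These values are across regions of the same libraries and were not tested. Whether this tilt accounts for the position of the single-repeat peaks was not tested.

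Sequence differed between the sets inside promoters. A summit lay in a promoter window for 542 repeat-1-only and 131 repeat-2-only peaks. The 300-base windows under repeat-1-only summits had a mean of 22.4 CG (SD 11.9), against 16.6 for shared summits of similar tags, a difference of 5.72 (4.18 to 7.26). Those under repeat-2-only summits had 12.8 CG (SD 10.4), against 21.1, a difference of -8.30 (-10.5 to -6.14). Without matching on tags, all shared summits in windows had a mean of 18.9 CG in repeat 1 and 18.6 in repeat 2. All 31396 autosomal windows of the table had a mean of 12.6. Mean GC content was 63.2% and 56.0%, against 58.7% and 61.8% for shared summits of similar tags, and 54.0% over all windows.

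Split by CG content, the windows richest in CG had the highest single share in repeat 1 and the lowest in repeat 2. Among peaks of at most 40 tags in windows with 17 or more CG, 272 of 407 in repeat 1 (66.8%, 62.0% to 71.4%) and 39 of 360 in repeat 2 (10.8%, 7.82% to 14.5%) were single. In windows with 5 to 16 CG, the counts were 109 of 233 (46.8%, 40.2% to 53.4%) and 51 of 211 (24.2%, 18.6% to 30.5%). In windows with at most 4 CG, they were 34 of 70 (48.6%, 36.4% to 60.8%) and 27 of 70 (38.6%, 27.2% to 51.0%). Repeat 1 thus showed no rise from the lowest class to the middle one. The intervals of the lists overlapped in the windows poor in CG and were far apart in those rich in it. All of these windows lie at starts, so CG content away from starts was not compared. Other traits that go with CG content in the windows were not tested.

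**Figure D4:**
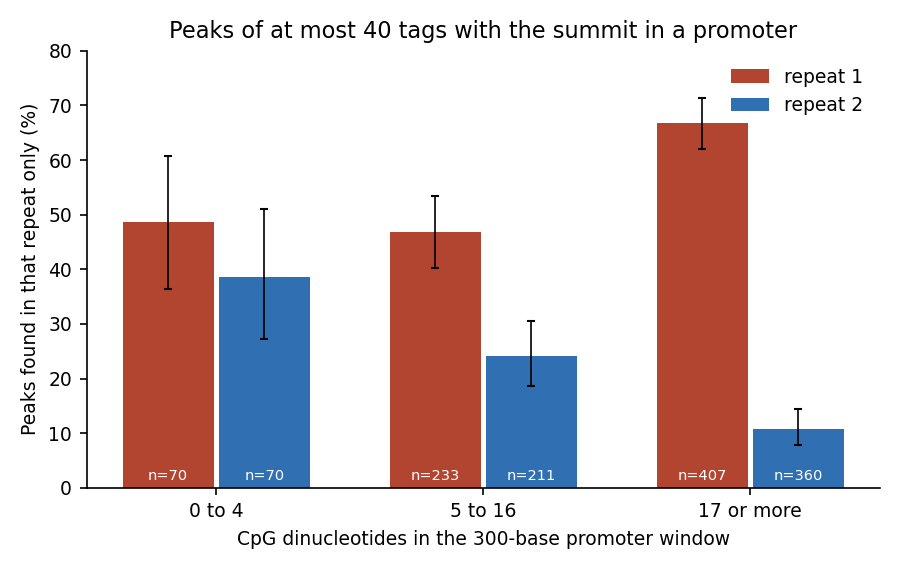
Percentage of peaks of at most 40 tags found in 1 repeat only (y axis) by number of CG dinucleotides in the promoter window that holds the summit (x axis), with exact 95% binomial intervals and the number of peaks in each bar. At 17 or more CG the bars are 66.8% in repeat 1 and 10.8% in repeat 2.

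A motif of the CP2 type was searched in the same windows: CCNG, then 6 bases of any kind, then CCNG, on either strand, where N is any base. It stood in 51.7% of windows under repeat-1-only summits and 45.8% under repeat-2-only summits, against 29.6% of all promoter windows. Shared summits of similar tags had 47.5% and 49.1%. The differences were 4.15 points (-2.64 to 10.9) and -3.30 points (-13.2 to 6.58), and both intervals took in 0. Over all shared summits in windows, without matching on tags, the motif stood in 54.4% in repeat 1 and 52.5% in repeat 2, above the members of each. The Bcl7c sequence printed holds 4 matches, those of Cldn3, Jmy, Gm12022 and Hecw2 hold 1 each, and those of Gm5785, Gm10829, Cd80 and Col13a1 hold 0. The letters favour sequences rich in G and C, and a match is no evidence of binding.

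For a minority of genes, single-repeat peaks were the only peaks nearby. Of 20661 autosomal protein-coding genes, 2085 (10.1%) had single-repeat peaks and no shared peak within 10 kb of an end. In 1298 of them (6.28% of all genes) all such peaks came from repeat 1, in 531 (2.57%) from repeat 2, and in 256 from both without overlapping. A peak within 1 kb of an end was found for 548 of the 1298 (42.2%) and 120 of the 531 (22.6%). Genes with repeat-2-only peaks alone thus less often had one within 1 kb of an end. A peak farther from an end can lie inside the gene. With a window of 50 kb, 1242 genes had single-repeat peaks only.

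No gene of the naive pluripotency list depended on single-repeat peaks: all 26 had a shared peak within 10 kb, as did 12858 of all 20661 coding genes (62.2%). The same held for all 6 genes of the CP2 and Grainyhead family and all 13 trophoblast genes. Single-repeat peaks lay beside the shared ones. At Tfcp2l1 itself, 1 repeat-1-only peak inside the gene (chromosome 1, 118633444 to 118634286, 24 tags, 6.76-fold) stood among 8 shared peaks between 10 kb before and 10 kb after the gene, and there was no repeat-2-only peak. The next genes were named after their values were seen. Nanog had a repeat-1-only peak 0.069 kb from an end (22 tags, 5.31-fold), with a repeat 2 peak only 0.077 kb away. Pou5f1, which encodes Oct4, had a repeat-1-only peak 0.008 kb from an end (42 tags, 9.93-fold), 0.047 kb from a repeat 2 peak. Klf2, a Krüppel-like factor gene of the naive state, had one inside the gene 0.930 kb from an end (58 tags, 14.7-fold), 0.505 kb from a repeat 2 peak. At these 3 genes the nearby repeat 2 peak was not a repeat-2-only peak, so it overlapped another repeat 1 peak. The repeat-1-only peaks there stood beside shared peaks. Sox2 had a repeat-2-only peak 3.92 kb away (49 tags, 7.46-fold).

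Over the 19 gene lists, 252 autosomal genes matched, and 19 of them (7.54%) had single-repeat peaks only, against 10.1% of all coding genes. Of these 19, 13 had peaks of repeat 1, 4 of repeat 2 and 2 of both. A peak within 1 kb of an end was found for 8 of the 13 and for 0 of the 4. The counts are too small to set any list apart from all genes.

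In the lists of neural progenitor, mesoderm and formative genes, the 6 genes with single-repeat peaks alone had them from repeat 1. Repeat 1 was also the only source for 13 of the 19 such genes over all lists. Over all coding genes it was so for 1298 of 2085, and these 3 lists were not set apart from them. Repeat-2-only peaks also lay at genes of these lists, beside shared peaks (2 neural progenitor, 3 mesoderm and 2 formative genes). In the neural progenitor list 3 of 14 genes had repeat-1-only peaks alone, against 6.28% of all coding genes. Among them, the zinc finger gene Zic1 had a peak of 30 tags (7.73-fold) 0.836 kb from an end, and the paired-box gene Pax3 had 27 tags (9.18-fold) at 0.654 kb. In the mesoderm list, the bHLH factor gene Twist1 had 40 tags (9.18-fold) at 0.446 kb, with no repeat 2 peak within 528 kb. Kdr, which encodes a VEGF receptor, had 2 repeat-1-only peaks, the larger with 32 tags (9.10-fold). Pou3f1, a factor of the formative epiblast, had 26 tags (7.37-fold) at 0.934 kb.

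In the neuron list 3 of 10 genes had single-repeat peaks only, against 10.1% of all coding genes. Syt1, the synaptic calcium sensor, had a repeat-1-only peak of 23 tags (6.28-fold) 0.137 kb from an end. Rbfox3, a neuronal splicing factor gene, had 32 tags (8.70-fold) inside the gene. Snap25, a synaptic vesicle fusion gene, had a peak of each repeat 85.3 kb apart, with 21 tags in repeat 1 and 36 in repeat 2. Des, the intermediate filament gene of muscle, had 30 tags (6.47-fold) at 7.20 kb, and Cd3e, a T cell receptor component, had 18 tags (5.72-fold) at 7.46 kb.

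Repeat-1-only peaks alone were found at 2 of 18 cell cycle genes, against 6.28% of all coding genes. The other 16 had a shared peak, and repeat-2-only peaks lay beside shared ones at 4 of them. Ccnd1, which encodes cyclin D1, had 47 tags (7.73-fold) 0.901 kb from an end, with the nearest repeat 2 peak 40.5 kb away. Its partner kinase gene Cdk4 had 38 tags (10.8-fold) at 3.74 kb, with the nearest repeat 2 peak 9.82 kb away. The nearest transcription start lay 0.548 kb from this peak, closer than either end of Cdk4. Vim, the intermediate filament gene of mesenchymal cells, had 49 tags (10.3-fold) at 0.284 kb. All of these peaks lay below the median of 58 tags of shared peaks.

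The 4 list genes with repeat-2-only peaks alone had them between 5.28 kb and 9.29 kb from an end. Egr1, an immediate early gene of ERK signalling, had 36 tags (8.24-fold) at 5.85 kb. The polycomb gene Suz12 had 28 tags (5.49-fold) at 9.09 kb and the collagen gene Col1a2 had 29 tags (5.89-fold) at 9.29 kb. B2m, the light chain of MHC class I, had 24 tags (5.49-fold) at 5.28 kb. Jak2, the kinase that phosphorylates Stat3 after LIF, had a repeat-1-only peak (21 tags, 7.73-fold) and a repeat-2-only peak (33 tags, 7.85-fold) with 1.23 kb between them. It was the 1 gene of 18 in the LIF and Stat3 list without a shared peak.

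**Figure D5:**
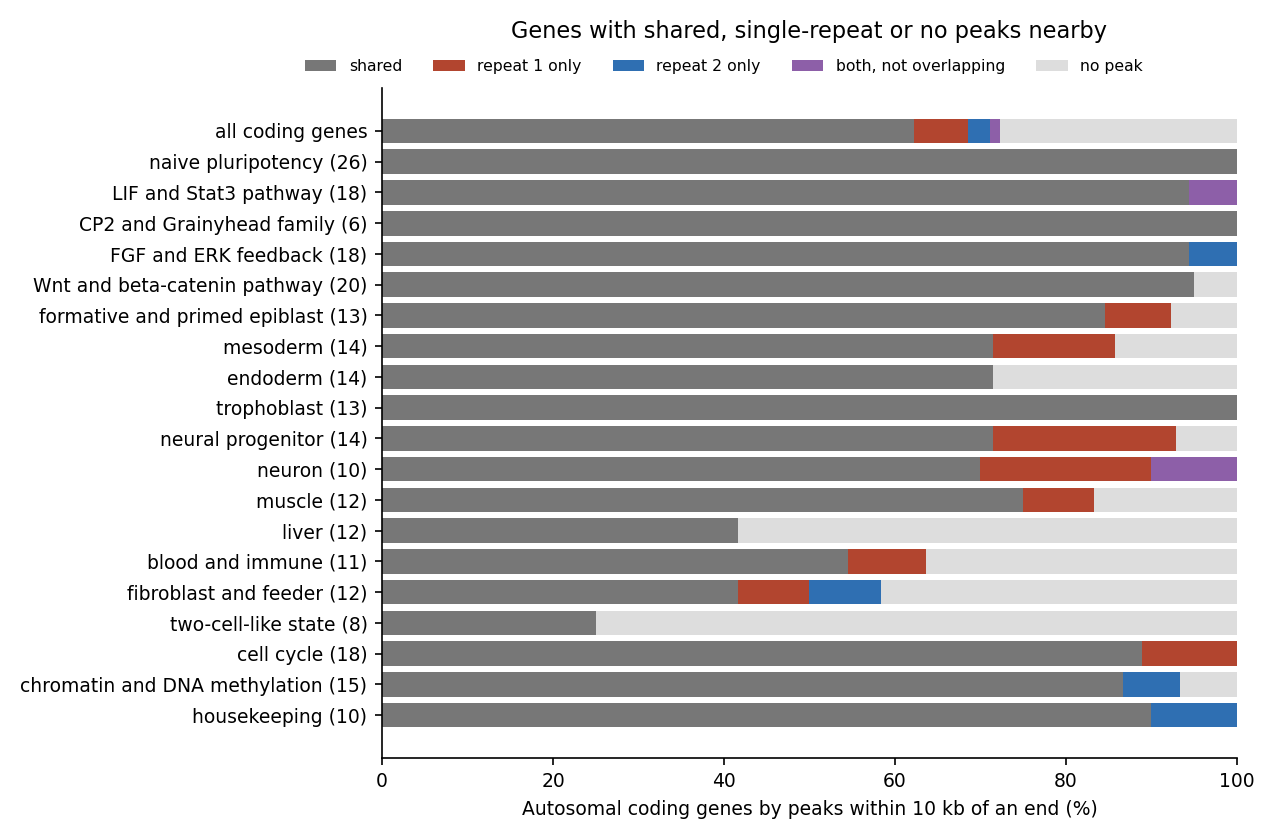
Percentage of autosomal protein-coding genes (x axis) with a shared peak, peaks of 1 repeat only, non-overlapping peaks of both repeats, or no peak within 10 kb of an end, for all 20661 genes and for each list (rows, number of genes in brackets). The naive pluripotency, trophoblast and CP2 rows are shared throughout. Of 14 neural progenitor genes 3, and of 18 cell cycle genes 2, had repeat-1-only peaks alone, against 6.28% of all genes.

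Long genes collected the most single-repeat peaks. Between 10 kb before and 10 kb after the gene, Camta1, a calmodulin-binding transcription activator gene of 802 kb, had 10 repeat-1-only peaks of 18 to 52 tags beside 26 shared and 2 repeat-2-only peaks. Grik3, Igsf21, Iqschfp and Arhgap26 had 9 repeat-1-only peaks each. For repeat 2 the RNA-binding protein gene Msi2 had 10 repeat-2-only peaks of 22 to 50 tags beside 39 shared and 8 repeat-1-only peaks. Apbb2, Auts2, Camk1d and Epb41l4a had 7 each. Each of these 10 genes also carried single-repeat peaks of the other list. A longer gene gives a wider window, and the counts were not scaled to gene length or to all peaks of the gene. Over all autosomal peaks, 23.6% of repeat 1 and 15.1% of repeat 2 were single.

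Many of the few repeat-1-only members with many tags had low enrichment. Above 100 tags the median was 5.8-fold (highest 37.9-fold), against 7.73-fold for all repeat-1-only peaks. Of the 58 repeat-1-only peaks above 100 tags, 34 (58.6%) had under 7-fold enrichment, against 14 of 11339 shared peaks (0.123%). Their median length was 1884 bp. The largest, 8840 bp inside Tmem267 (chromosome 13, 119595343 to 119604182), held 2745 tags at 4.48-fold enrichment. The region 10.5 kb from the predicted gene Gm40363 (chromosome 6, 47742901 to 47749811) held 705 tags at 4.78-fold. Tcp10c (48.5 kb away) had 639 tags at 3.66-fold, and Gm40369 had 522 tags at 5.25-fold inside the gene. On chromosome 6, 7 repeat-1-only peaks of 18 to 705 tags stood between 47650380 and 47925682, a span of 275 kb that held 14 repeat 1 peaks and 8 repeat 2 peaks in all.

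A pair of peaks beside Fcgr3, an Fc receptor gene, had 357 and 286 tags at 5.98-fold and 6.11-fold, and a region 16.5 kb from Emid1 had 275 tags at 3.48-fold. Tcp10c belongs to a cluster of close copies, and whether reads there were placed uncertainly was not tested. Repeat 2 had 6 members above 100 tags, with a median of 6.43-fold, against 6.54-fold for all repeat-2-only peaks. P4ha2, a collagen prolyl hydroxylase gene, had the largest 8.97 kb away, with 439 tags at 3.47-fold. 1700029F12Rik followed with 123 tags at 13.7-fold, Zfp143 with 122 at 3.86-fold and Hjurp with 117 at 5.46-fold, the last inside Mroh2a. Pgm1, a phosphoglucomutase gene, had 110 tags at 28.2-fold inside the gene (chromosome 4, 99941340 to 99942298), the highest enrichment of the set. Pisd had 106 tags at 7.40-fold, and Arsb and Tmem267 had 98 each, at 5.10-fold and 10.7-fold.

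A member often had a peak of the other repeat nearby. The nearest peak of the other list lay within 1 kb of 1770 repeat-1-only peaks (13.2%) and 1181 repeat-2-only peaks (15.3%), and within 10 kb of 55.9% and 60.7%. The median gap was 7.70 kb and 6.57 kb. Just outside the limit, the repeat-1-only peak inside Tns3 (30 tags) ended at the base before a repeat 2 peak of 89 tags. That inside Arhgef3 (50 tags) likewise touched a repeat 2 peak of 26 tags. The peak inside Prkci (20 tags) had 1 base between it and a repeat 2 peak of 62 tags. The repeat-2-only peak inside Syk (30 tags) touched a repeat 1 peak of 29 tags, that inside Grhl3 (26 tags) one of 146, and that inside Fam110b (26 tags) stood 1 base from one of 28.

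Just inside the limit, a repeat 1 peak of 45 tags and a repeat 2 peak of 50 tags, both inside Grhl3, overlapped by 1 bp. Overlaps of 1 bp were also found for repeat 1 peaks near Rbsn (24 tags) and inside Ubxn8 (21 tags). In repeat 2 they were 1 bp near Tpra1 (25 tags) and 4 bp inside Nfatc2 (25 tags).

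Gene families of repeated copies made up little of either set. The nearest coding gene was an olfactory receptor gene (Olfr) for 76 repeat-1-only peaks (0.568%, 0.222 points above matched shared peaks, 0.060 to 0.383) and 21 repeat-2-only peaks (0.273%, -0.114 points, -0.277 to 0.050). For vomeronasal receptor genes (Vmn), protocadherin genes (Pcdh), keratin-associated protein genes (Krtap), Zfp genes and ribosomal protein genes (Rpl and Rps) all intervals took in 0 in both lists. The most frequent of these was Zfp, nearest to 258 repeat-1-only (1.93%) and 129 repeat-2-only peaks (1.67%).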

How the data were processed

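Tfcp2l1 ChIP and input libraries were sequenced in 2 repeats, 4 libraries in all. Base calling used CASAVA 1.8.2 and peaks were called with MACS 1.4.1, per the submitters' processing notes, with 1 deposited list per repeat. For the aligner, nothing is given in the sources used here. Per the file headers, the authors called each ChIP library against its input at a p threshold of 1e-05, a d of 200 bp, 35-base tags and at most 2 duplicates per position. The deposited values are the count of tags in each peak, the score (10 times −log10 of the p-value), the fold enrichment ratio, the FDR in percent, the length and the summit. No value was rescaled, except that tags of shared pairs were scaled to the filtered ChIP totals.

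The notes name mm9, but 13.4% and 12.3% of summits lay within 1 kb of a GRCm38 start, against 3.23% and 3.14% after moving them 1 Mb, and more did so on 18 of 18 autosomes in each list. Positions were therefore read as GRCm38. Genes and promoters came from RefSeq tables for GRCm38.p6. The gene table has no strand or exons, and the promoter table is not complete. Chromosome 18 was not used for promoters and starts.

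Each list was compared on its own. Shared peaks were weighted to the exact tag counts of the single-repeat peaks (strata of 5 tags for promoters), and 3 repeat-1-only peaks without a counterpart were left out. Intervals are 95%, exact (Clopper-Pearson) for shares and symmetric for differences, and cover counting error only. PCR reads without molecular identifiers are not independent molecules. No p was computed, since peaks are not replicates and both repeats entered the choice of peaks. The code was tested on simulated data. Python 3.11.15, numpy 2.4.6, pandas 2.3.3, scipy 1.17.1 and matplotlib 3.10.9 were used.

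The members and the gene lists were chosen with earlier results of these data known. Genes were named by rule for each list: the nearest coding genes of the 8 members with the most tags, the 3 members nearest to the 1 bp limit and the 3 shared peaks with the smallest overlap, the 5 genes with the most members, genes of the lists with members only (up to 4 a list), the 6 promoters with the most tags and the 3 shared ones nearest in tags, and Tfcp2l1. Of the genes so named, 1 is not reported here. Alternatives changed the overlap limit, the matching, the tag, fold and FDR minimum, the point used for a peak, the gene classes and the gene window. Matching on score, a limit of 100 tags, distances to transcription starts and promoter composition were added after seeing the data.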

Additional observations from a re-analysis of the deposited data

Results flagged for a closer look

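The repeats differed in how the positions of their single-repeat peaks departed from those of tag-matched shared peaks. Each value below is the departure from tag-matched shared peaks in repeat 1 minus that in repeat 2, in percentage points, and each was picked out because its 95% interval, for counting error only, did not take in 0. The matched sets of both repeats hold many of the same shared regions, and with 1 ChIP library a repeat there is no replicate check.

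At transcription starts (within 1 kb) the difference was 11.8 points (10.7 to 13.0). Within 1 kb of a coding gene end it was 12.4 points (11.2 to 13.6), and within 10 kb 11.1 points (9.23 to 12.9). For summits inside a coding gene it was 5.001 points (3.13 to 6.87). Summits beyond 100 kb of any coding gene end gave -2.40 points (-3.67 to -1.12), and peaks whose nearest gene was non-coding gave -6.24 points (-8.11 to -4.37). Without matching, the shares of the members themselves differed by 7.20 points within 1 kb of a coding gene end (6.35 to 8.06) and by -0.09 points beyond 100 kb (-1.06 to 0.87). The matched shared peaks differed too. Their shares were 9.04% in repeat 1 and 14.2% in repeat 2 within 1 kb of an end, and 13.9% and 11.6% beyond 100 kb.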

How the results depend on the processing

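Of 151 alternative values, 117 kept their sign and their call, and another 8 changed sign with intervals that took in 0 throughout. The share of single-repeat peaks moved with its definition: from 23.6% in repeat 1 to 21.9% and 20.5% when a peak within 0.5 kb or 1 kb counted as shared, 27.1% with summits within 300 bp, 3.26% at an FDR of 0%, 7.09% at 10-fold enrichment or more and 3.77% at 50 tags or more. In repeat 2 the same settings moved 15.1% to 13.8%, 12.8%, 18.9%, 5.15%, 1.35% and 0.815%. Genes with single-repeat peaks only numbered 1242 with a window of 50 kb. Without matching on tags, repeat 1 gave -1.21 points within 10 kb of a coding gene end, 0.65 inside coding genes, 3.88 beyond 100 kb, 0.82 for a non-coding nearest gene, 0.62 at transcription starts, 0.099 for Vmn and 0.154 for Pcdh genes, and repeat 2 gave -0.40 for Zfp genes. Beyond 100 kb, repeat 1 also turned to 1.97 points when matched on fold enrichment, 0.919 for members over 1 kb from any peak of the other repeat, 1.85 at 30 tags or more and 1.49 when matched on score. Matched on fold enrichment, repeat 1 gave 1.44 points inside coding genes and -6.83 for another peak of the list within 10 kb, and repeat 2 gave -4.64 for the latter and 3.46 beyond 100 kb, where it was 0.70 with genes of every class. Inside coding genes, repeat 2 gave -1.23 points at 30 tags or more. Apart from the unmatched settings, the cause of these shifts was not tested. No paired analysis was possible because each input library enters only through the authors' peak calls and every comparison is between peaks of 1 list. With 1 ChIP library a repeat, leaving out a repeat leaves no single-repeat peaks to compare. Small peaks limit what can be shown: most members hold fewer than 40 tags.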

Other observations

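The sex chromosomes were kept out of the comparisons. On chromosome X, 360 of 935 peaks of repeat 1 (38.5%, exact 95% interval 35.4% to 41.7%) and 116 of 689 of repeat 2 (16.8%, 14.1% to 19.8%) overlapped no peak of the other list. On chromosome Y the counts were 20 of 38 and 5 of 23. Over the autosomes the share ran from 21.3% (chromosome 19) to 25.4% (chromosome 5) in repeat 1 and from 13.3% (chromosome 17) to 17.2% (chromosome 18) in repeat 2, so X in repeat 1 lay above every autosome. The median repeat 1 peak held 36 tags on X and between 44 and 50 on the autosomes, and the part of this gap in the share was not tested.

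Some repeat-1-only peaks had high enrichment, and these genes were named after their values were seen. Prmt3, an arginine methyltransferase gene, had 114 tags at 37.9-fold, Dcaf7 had 87 tags at 30.9-fold 0.126 kb from an end, and Nudt3 had 81 tags at 30.9-fold 0.588 kb from an end. The nearest repeat 2 peak lay 18.5 kb, 3.85 kb and 0.287 kb away.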
